A study of Mus musculus with 66 samples.

Results

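Mouse testes of the first 10 days after birth were compared with testes of day 30 and later, which hold spermatids. The earlier group was made of the samples labelled day 0, 3, 6, 8 and 10 and the later group of those labelled day 30, 35 and 56. These are 48 of the 66 arrays of a developmental time course, 30 in the earlier group and 18 in the later. Total RNA of whole testes from mice labelled BL/6-129 was isolated with TRIzol. There were 2 numbered samples per day on each of array types A, B and C. The labels do not say whether a number stands for the same RNA on all types. A type thus held 10 earlier and 6 later samples, beside 6 samples of days 14, 18 and 20 that were not part of either group. The labels name no treatment or genotype beyond the strain and leave it unstated whether a day's samples came from different animals, from pools or from repeated measurements. The p-values and SE therefore measure the spread between the 2 samples of a day, which may be technical. Variation between the days within a group does not enter them. In whole testes, fewer cells of a type and less RNA per cell cannot be told apart.

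In the newborn testis the seminiferous cords hold Sertoli cells and germ cells that are first gonocytes and then spermatogonia, and they lie in an interstitium with Leydig cells, vessels and macrophages. Germ cells that enter meiosis become spermatocytes, and the meiotic divisions give haploid round spermatids. These build an acrosome and a flagellum and replace their histones with transition proteins and then protamines. Germ cells of the meiotic and haploid stages come to make up most of the organ. A transcript of the somatic cells can thereby form a smaller share of the testis RNA in an older animal. Whether this played a part in any change below was not tested.

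Each gene was represented by its brightest probe set. Signals were compared as log2(signal + 16), and a change is the mean of the later days minus the mean of the earlier days on that scale, so that changes of dim genes are understated. A call required an adjusted p under 0.05 (limma, Benjamini-Hochberg adjustment over all genes) and a change of at least 2-fold. A gene was fully separated when all 10 earlier samples lay on one side of all 6 later samples, and the gap is the distance in log2 units between the nearest samples of both groups. Genes that were called and fully separated are termed large differences. Genes that were fully separated with an adjusted p under 0.05 but changed less than 2-fold are termed modest differences.

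The labels were first set against marker genes. Of 9 spermatid markers, all were measured and all were large differences with higher signals at days 30 to 56, and their summed signal was 302 to 1528 in the earlier samples and 35792 to 60060.0 in the later ones. None of the 9 had a signal of 0 in the earlier samples, which does not by itself show that a transcript was present. Tnp1, which encodes a transition protein, read 131 to 362 there and 118 to 191 at days 18 and 20. Prm1, the gene of protamine 1, read 4.3 to 759 in the earlier samples. Prm2 was dim in the later samples too, at 14.4 to 83.9. The days 0 to 10 are often called premeiotic, but transcripts of meiotic entry were measurable within them. Stra8, the retinoic acid target needed to start meiosis, had mean signals of 8.4 at day 0 and 389.6 at day 10, and Syce1, of the synaptonemal complex, of 177 and 1021. The probe set of Sycp3, another gene of that complex, was dim in both groups, at 10.1 to 67.3 and 16.1 to 87.7. Epididymis markers were not measured. Of the fat markers only Adipoq was measured, and it was higher in the later group, at 137 to 216 against at most 65.9. Of the erythroid markers Hba-a1 and Alas2 were measured, with a summed signal of 1762 to 8517 in the earlier and 488 to 859 in the later samples. Most of that sum was Hba-a1, at 1723 to 8277 and 425 to 756. Alas2 did not fall, at 39.1 to 240 and 62.5 to 139.9 (change 0.125, not called). The part of fat or blood in any result was not tested.

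Some earlier samples stood apart by small amounts of later transcripts. Among large rises of more than 16-fold, the highest of the 10 earlier values fell most often in day 3 sample 1 and day 6 sample 2 on type A (19 and 27 of 85 genes) and in day 3 sample 2 and day 6 sample 1 on type C (65 and 35 of 187). On type B it fell most often in day 3 sample 2 (30 of 109), followed by day 0 sample 2 (18), day 8 sample 2 (17) and day 6 sample 1 (15). The median excess in the day 3 and day 6 samples ran from 0.17% to 0.81% of the later level. Ldhc, the lactate dehydrogenase of spermatocytes, read 185 and 60.6 in those samples of type A and between 1.6 and 9.7 in the other 8 earlier samples. Prm1 read 540.1 and 759 in them and between 4.3 and 129 elsewhere. The cause was not tested. Without day 3 sample 1 and day 6 sample 2 on type A, and day 3 sample 2 and day 6 sample 1 on types B and C, 1829 genes were large rises and 2338 large falls, against 1812 and 2280 with them, and 438 were modest rises and 900 modest falls, against 385 and 786. Full separation is easier to meet with fewer samples, so these counts do not show an effect of the traces. Leaving day 10 out of the earlier group instead gave 1863 large rises, 2338 large falls, 426 modest rises and 896 modest falls.

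The large rises held a larger share of the array signal in the later samples, which follows from how these genes were chosen. The size of that share is a description. On type A they held a median of 4.95% of the summed signal at days 0 to 10 and 27.9% at days 30 to 56, on type B 4.8% and 30.5%, and on type C 3.36% and 37.2%. Every array had been scaled to the same mean signal. The median change of all genes was -0.24, and it was -0.004 with arrays scaled to their median and -0.14 with quantile normalization. The ratios of the 3′ to the 5′ probe sets of actin, a sign of RNA quality, were 1.34 to 1.73 and 1.28 to 1.66 in the earlier and later arrays of type A, with overlapping ranges on types B and C too.

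Differences between the groups covered much of the transcriptome. Of 13462 genes tested, 2000 (14.9% of all) were called higher at days 30 to 56 and 2772 (20.6%) lower. With arrays scaled to their median the balance turned, with 2405 higher and 1978 lower, so the share of calls that were higher was 41.9% in one scaling and 54.9% in the other. Large differences with full separation numbered 1812 higher (13.5%) and 2280 lower (16.9%). A further 188 called genes were higher and 492 lower with overlapping groups. Modest differences numbered 385 higher (2.86%) and 786 lower (5.84%).

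Rises were larger than falls. The median size of a large rise was 2.29 log2 units (quartiles 1.54 and 3.64), and that of a large fall was 1.54 (1.25 and 1.98). More than 16-fold changes were seen in 381 large rises and in 10 large falls. The median gap was 1.32 for large rises, 0.67 for large falls, 0.13 for modest rises and 0.16 for modest falls. Genes known only by a clone name made up 12.3% of the large rises, 1.84% of the large falls and 6.63% of all genes. The 2-fold bound cut through a continuum, with 322 separated genes between 1 and 1.1 log2 units and 308 between 0.9 and 1.

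**Figure D1:**
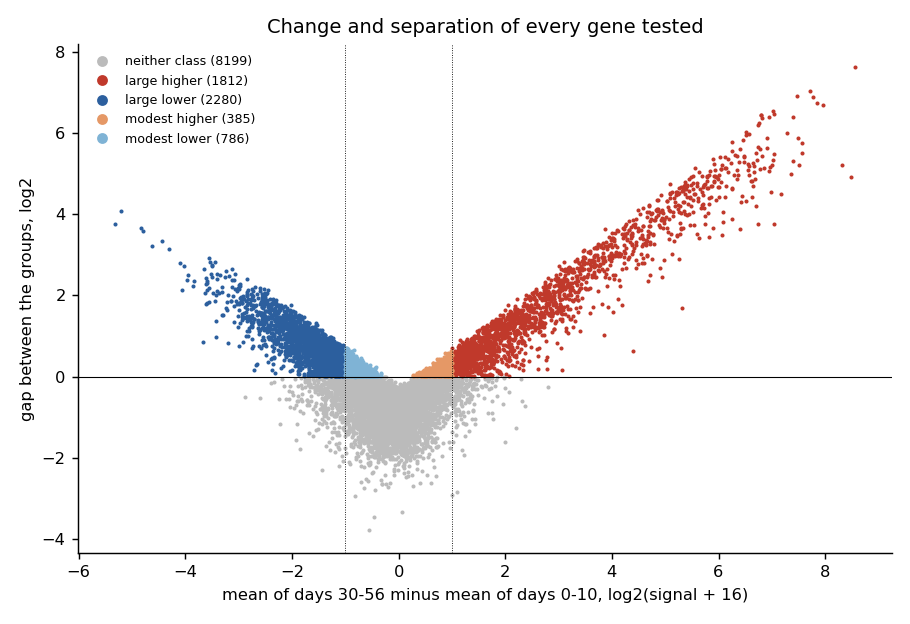
Each point is a gene, with the change (days 30 to 56 minus days 0 to 10, log2) on the horizontal axis and the gap between the groups (log2) on the vertical axis. Points above the horizontal line are fully separated and the dotted lines mark 2-fold. The right arm reaches a gap of 7.62 and the left arm one of 4.07.

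The largest rise was that of Iqcf3, a gene of the IQ motif family on chromosome 9. Its signal was 7.5 to 19.5 (median 9.7) at days 0 to 10 and 6967 to 16996 (median 9631) at days 30 to 56. The 2 groups were far apart in every sample, and the change was 8.57 ± 0.16 (SE, adjusted p = 3.2e-17), or 379-fold. Its mean signal was still 15.7 at day 20 and was 7426 at day 30. Ldhal6b and Ldhc, both genes of the lactate dehydrogenase family, rose by 8.48 and 8.32, but with a different course. Ldhc had mean signals of 638 at day 14 and 5203 at day 18, before spermatid markers such as Prm3 had left their early level. The other 9 of the 12 largest rises were between 7.40 and 7.96 in size. They included Tnp2 (a transition protein), Catsperz (a subunit of the sperm calcium channel CatSper), Dkkl1 (an acrosomal protein), Tsga8 (an X-linked gene of spermatids) and Fabp9 (a fatty acid binding protein of sperm).

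Of the 239 genes chosen for naming, 52 rest on probe sets whose identifier carries a suffix for probes that may be shared with other transcripts or chosen from a larger set. Iqcf3, Fam229a, Efcab9 and Prm1 are among them and have no other probe set that passed the filter, so related family members may add to their signals. Fabp9 has one, which gave a change of 5.99, and Gapdhs has one that gave 6.81.

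Genes of spermatid chromatin were higher as a group. Of 12 measured genes of this list 11 were large rises, beside 13.5% of all genes, and none was lower. The median change was 5.76 beside -0.24 for all genes. Prm3, which lies in the protamine gene cluster of chromosome 16, read 7.4 to 15.3 (median 9.25) in the earlier samples. The 6 later samples read 2369.7 to 3624 (median 2712), and no pair of samples from different groups was close. The change was 6.77 ± 0.10 (adjusted p = 1.12e-17), the smallest p of the 12 genes. Tnp2 had a median of 31.4 and a highest value of 143 in the earlier samples against 8574 to 14966 (median 10919) later, a change of 7.57 ± 0.26. Prm1 rose by 7.04 ± 0.63, with the largest SE of the list, and its highest early values were those of the day 3 and day 6 samples named above. H2al2a, a histone variant of condensing spermatids, rose by 6.68 ± 0.17.

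**Figure D2:**
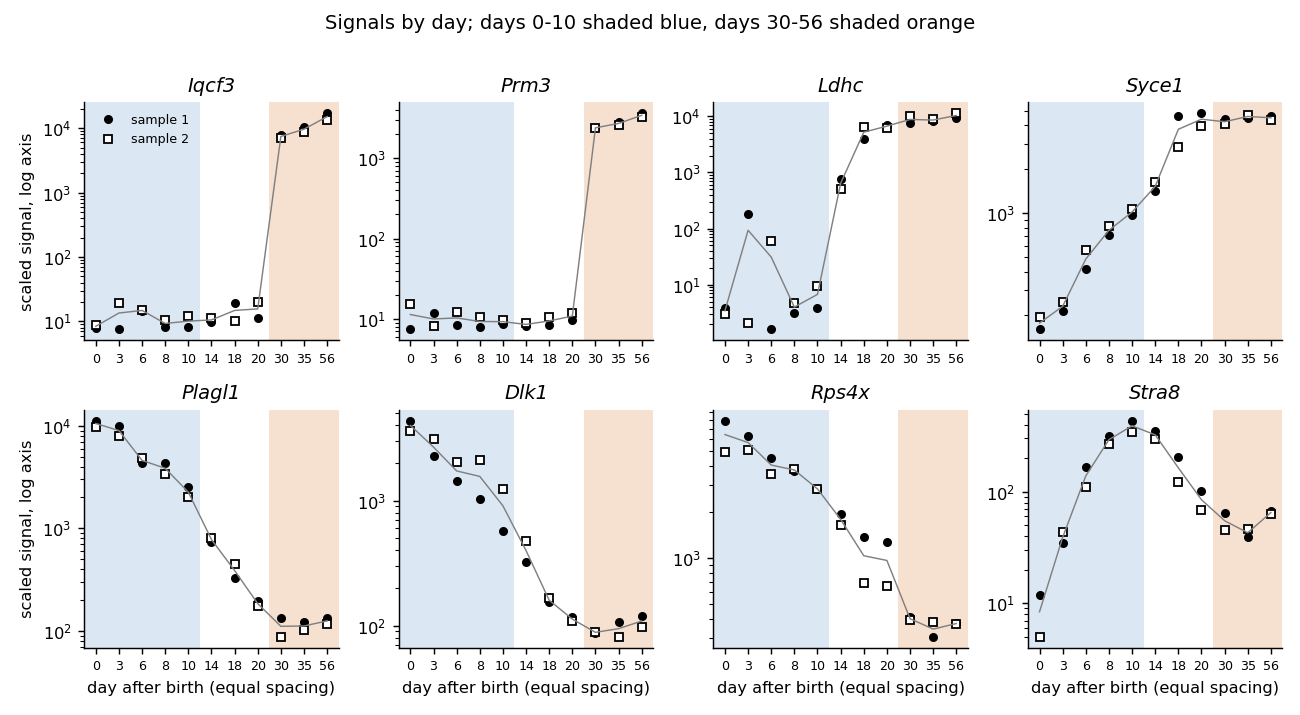
Signals of 8 genes in every sample by day after birth, on a log axis and with days evenly spaced. Filled circles are sample 1, open squares are sample 2 and the line joins the means. Iqcf3 and Prm3 stay at their early level through day 20, while Ldhc and Syce1 leave it sooner, and Plagl1, Dlk1 and Rps4x fall within days 0 to 10. Stra8 peaks at day 10.

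The acrosome and egg-binding list had 26 of 28 measured genes among the large rises (median 4.88), beside 13.5% of all genes. Crisp2, which encodes a secretory protein of the acrosome and tail, read 2.9 to 43.7 (median 9.1) and 3794 to 5257 (median 4227) and rose by 7.29 ± 0.28. Adam3 and Adam5, sperm surface proteins of the ADAM family, rose by 6.78 ± 0.32 and 6.90 ± 0.27. Acr, the gene of the acrosomal protease acrosin, rose by 5.34 ± 0.24 and was already at a mean signal of 478 at day 18. Zp3r, an acrosomal matrix protein, rose by 6.26 ± 0.24, and Acrv1, of the acrosomal membrane, by 5.05 ± 0.16.

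Components of the sperm tail followed. In the list of fibrous sheath, outer dense fibre and mitochondrial capsule, 22 of 25 measured genes were large rises (median 4.85). In the axoneme list 28 of 31 were large rises (median 3.60), beside 13.5% of all genes. Akap4, the main anchoring protein of the fibrous sheath and an X-linked gene, read 2.1 to 17.9 (median 4.3) in the earlier and 1446 to 2488 (median 2112) in the later samples (6.48 ± 0.15, adjusted p = 6.45e-16). The lowest later sample was more than 16-fold above the highest earlier one. Odf1, a protein of the outer dense fibres, rose by 6.17 ± 0.14, with mean signals of 75.5 at day 20 and 4216 at day 30. Smcp, a capsule protein of sperm mitochondria, changed by 6.58 ± 0.24 and Oaz3, an antizyme, by 6.99 ± 0.22. Of the axoneme genes, Meig1 rose by 6.79 ± 0.23, Spag6l, of the central pair, by 6.12 ± 0.32 and Dnah8, a dynein heavy chain, by 5.82 ± 0.12. Meig1 stood at a mean of 906 at day 18, unlike Odf1 at 68.5.

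Most germ cell isoforms of metabolic enzymes were called higher, and more somatic counterparts of germ cell isoforms were called lower than higher. The 2 lists were not paired gene by gene, and the second also holds non-metabolic genes such as Pabpc1. Of 28 measured germ cell isoforms, 20 were called higher and 1 lower (median 4.09). Of 24 measured somatic counterparts, 2 were called higher and 14 lower (median -1.36). Of all genes, 14.9% were called higher and 20.6% lower. Gapdhs, the glyceraldehyde phosphate dehydrogenase of the sperm tail, rose by 6.78 ± 0.17, Pgk2, a phosphoglycerate kinase of meiotic and later cells, by 5.92 ± 0.19 and Pgam2, a phosphoglycerate mutase, by 7.01 ± 0.17. The X-linked counterpart Pgk1 was a modest fall (-0.92 ± 0.16), and Pdha1, the X-linked subunit of pyruvate dehydrogenase, changed by -2.22 ± 0.20. The 2 somatic counterparts called higher were Ldha (2.65 ± 0.15), a lactate dehydrogenase subunit related in sequence to Ldhc, and the poly(A) binding protein gene Pabpc1 (1.79 ± 0.12). Whether their probe sets also read the germ cell relatives was not tested. Hk1, a hexokinase with germ cell transcripts, was the isoform called lower (-1.48 ± 0.17).

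Regulators of late germ cells were more mixed. In the list of transcription and RNA regulators, 19 of 28 measured genes were called higher and 1 lower (median 2.40). Of all genes, 14.9% were called higher and 20.6% lower. Ybx2, which binds stored mRNA in spermatids, read 5.8 to 33.7 (median 13.9) and 1796 to 4348 (median 3819), a change of 6.66 ± 0.25. Gtf2a1l, a germ cell form of the general factor TFIIA, rose by 5.96 ± 0.29 and Tdrd6, of the chromatoid body, by 5.42 ± 0.23. Crem, the gene of a transcription factor needed for spermatid gene expression, changed by 0.78 ± 0.17 (adjusted p = 0.000545) with overlapping groups, and its other probe set gave 0.16 (adjusted p = 0.643). The one called lower was Elavl2 (-1.82 ± 0.30), whose groups overlapped. Of 26 spermatid kinases and phosphatases, 16 were called higher and 2 lower, the latter a share under that of all genes. Tssk3 (6.56 ± 0.14), Tssk6 (5.68 ± 0.31) and Tssk1 (5.60 ± 0.14), kinases of spermiogenesis, were among the rises. Ppp1cc, a protein phosphatase whose splice form is abundant in sperm, was lower by this probe set (-1.92 ± 0.11), and so was Prkacb, a catalytic subunit of protein kinase A (-1.34 ± 0.13).

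Genes of meiotic prophase had a smaller median change than the chromatin, acrosome and tail lists above. Of 30 measured genes of the list 16 were called higher, 14 of them with full separation, and none was called lower (median 1.34). Of all genes, 14.9% were called higher and 20.6% lower. Hspa2, the heat shock protein of spermatocytes, read 168 to 524 (median 351) and 6136 to 8482 (median 7067) (4.38 ± 0.15), and its mean signal at day 20 (9284) was above those of days 30 (6524) and 56 (7863). Ccna1, the meiotic A-type cyclin, rose by 4.39 ± 0.24, and Clgn, a chaperone of the germ cell reticulum, by 4.46 ± 0.17. The 2 modest rises were Cdc25c (0.41 ± 0.11, gap 0.07) and Mlh3 (0.58 ± 0.15, gap 0.03). Their other probe sets gave 0.28 (adjusted p = 0.0541) and -0.62 (adjusted p = 0.0544), so neither modest rise was seen in a second probe set. Stra8, which peaked at day 10, changed by -0.79 ± 0.14 between the groups with overlapping values (adjusted p = 8.54e-05, and 0.236 by limma when fitted as 2 groups of samples), and the earlier group spans 5 to 433.

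The promoters of genes that moved together were read for 6 short motifs on both strands, from 250 bases before to 50 after the gene start (RefSeq, GRCm38.p6). Such a window is held for 10780 of the 13462 genes tested, and a gene with several starts was counted if any of its windows had the motif. The 4 promoters below are of genes far higher at days 30 to 56, with matches to TGACNTCA, a relaxed form of the cAMP response element, or to its reverse complement in capitals. They are shown because the genes encode sperm proteins or lead the rises, and were picked after the values and the motif shares were seen. Windows with the exact element TGACGTCA were listed first, for genes of either direction, and were replaced by these once the shares were known. Each is 100 bases long and lies within the 250 bases before a gene start.
Prm1 (chr16:10796834-10796933, minus strand): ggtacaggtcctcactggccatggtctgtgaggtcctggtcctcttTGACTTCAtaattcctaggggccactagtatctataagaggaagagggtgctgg
Gapdhs (chr7:30743704-30743803, minus strand): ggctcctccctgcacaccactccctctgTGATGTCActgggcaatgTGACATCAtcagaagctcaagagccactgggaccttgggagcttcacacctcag
Akap4 (chrX:7067415-7067514, plus strand): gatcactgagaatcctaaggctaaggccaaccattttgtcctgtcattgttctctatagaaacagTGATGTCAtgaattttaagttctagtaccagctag
Iqcf3 (chr9:106561627-106561726, minus strand): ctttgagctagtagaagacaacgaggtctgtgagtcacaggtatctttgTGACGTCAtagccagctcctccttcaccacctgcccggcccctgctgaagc
The match begins 64 bases before the start of Prm1, 51 before that of Iqcf3 and 35 before that of Akap4, and Gapdhs has 2 matches.

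The share of promoters with TGACNTCA was 14.3% among large rises and 6.62% among large falls, beside 8.77% among all genes tested and 10% among all 27025 genes with a window. Among the 200 largest rises, a set chosen after the shares were seen, it was 22.7%. The exact element TGACGTCA did not follow this order, with 3.66%, 2.69%, 3.17% and, for the 200 largest, 2.45%. CCAAT and TATAAA differed little. CCAAT was in 44.0% of large rises and 43.3% of large falls, and TATAAA in 9.16% and 8.5%, beside 42.7% and 9.7% of all genes tested. A fixed form of the X-box, the motif bound by RFX factors, was in 1.7% of large rises and 0.215% of large falls, beside 0.696%. GGGCGG, the GC box, was in 55.2% of large rises, 74.4% of large falls and 64.1% of all genes tested. For modest differences the shares with TGACNTCA were 8.41% (higher) and 9.72% (lower), and with GGGCGG 67.3% and 71.6%. A match is a description of these letters and not evidence of binding.

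The next 2 promoters, of genes that were far lower at days 30 to 56, are shown with GGGCGG or its reverse complement CCGCCC in capitals, chosen in the same way after the shares were seen.
Plagl1 (chr10:13090732-13090831, plus strand): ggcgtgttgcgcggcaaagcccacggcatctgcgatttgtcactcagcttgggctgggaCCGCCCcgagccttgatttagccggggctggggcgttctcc
Col5a1 (chr2:27886306-27886405, plus strand): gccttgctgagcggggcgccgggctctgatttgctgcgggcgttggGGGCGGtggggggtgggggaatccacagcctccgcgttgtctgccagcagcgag

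The largest fall was that of Plagl1, an imprinted zinc finger gene of fetal growth control. It read 2003 to 11218 (median 4598) at days 0 to 10 and 87.4 to 134 (median 119) at days 30 to 56. All later samples were below all earlier ones, and the change was -5.31 ± 0.12 (adjusted p = 3.61e-16). The fall had begun within the earlier group, with a mean of 10532 at day 0 and 2253 at day 10. Its other probe set fell by 3.74 on the log2 scale. Of 27 measured imprinted and fetal growth genes, 18 were called lower and 0 higher (median -1.80), beside 20.6% and 14.9% of all genes. Dlk1, an imprinted membrane protein, read 575 to 4365 (median 2062) and 81.1 to 119 (median 93.5) (-4.07 ± 0.18). Igf2, the fetal growth factor, changed by -3.62 ± 0.16, Peg3 changed by -3.83 ± 0.18 and Mest by -2.75 ± 0.12.

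Extracellular matrix genes were lower with few exceptions. Of 48 measured genes 41 were large falls, 2 were modest falls and 2 modest rises (median -2.04, and -1.79 with arrays scaled to their median). Of all genes, 16.9% were large falls, 5.84% modest falls and 2.86% modest rises. Col3a1, a fibrillar collagen of connective tissue, read 1498 to 3335 (median 2085) and 96.5 to 343 (median 197) (-3.31 ± 0.18), with a later range well below the earlier one. Col1a2 (-3.61 ± 0.13), Col5a2 (-3.58 ± 0.15) and the matrix protein Sparc (-1.55 ± 0.17) moved the same way. Col5a1 changed by -4.79 ± 0.17 on its brightest probe set and by -1.34 on another. Lama4, a laminin chain, was one of the modest rises (0.60 ± 0.12), but its other probe set fell by 1.34 on the log2 scale (adjusted p = 6.13e-07), so its direction is uncertain.

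**Figure D3:**
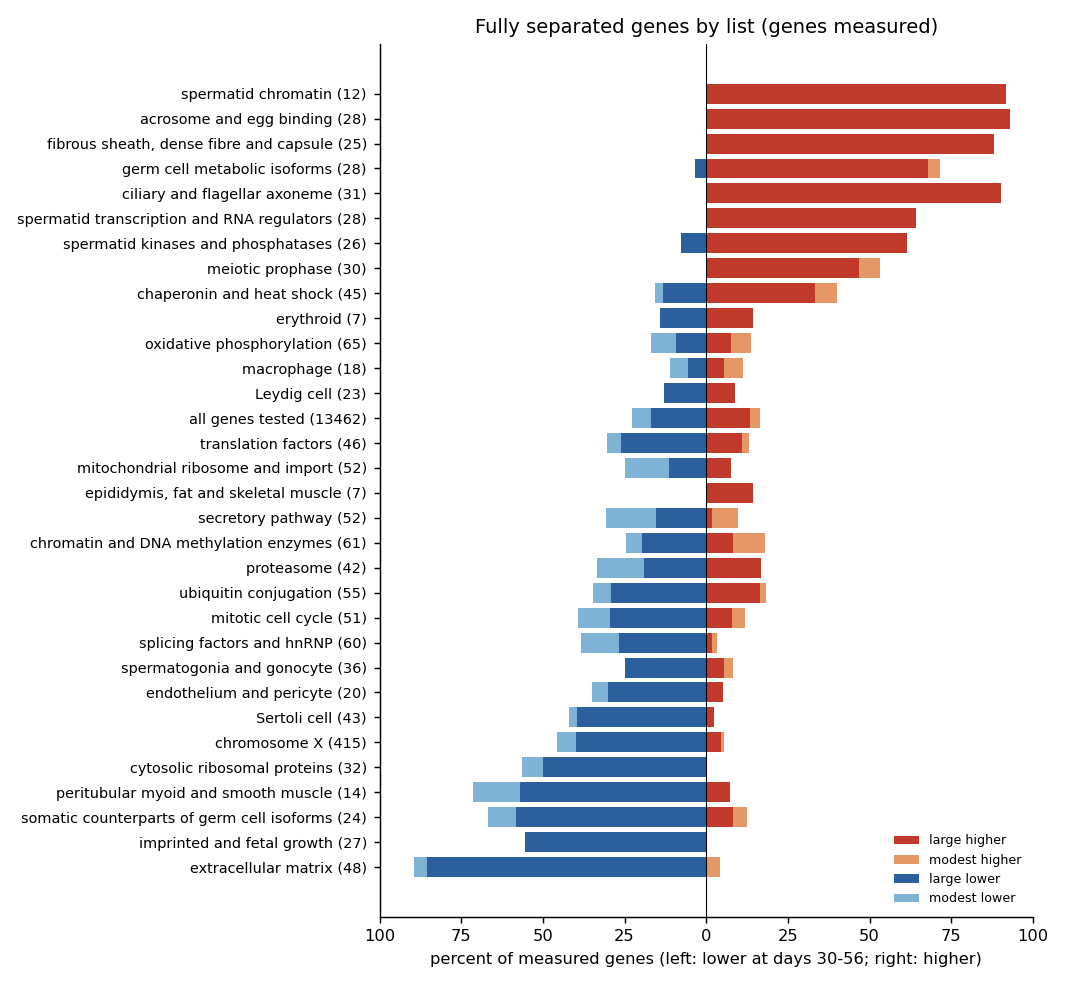
Percent of the measured genes of each list that were fully separated, to the right for higher and to the left for lower signals at days 30 to 56. Dark bars are large and pale bars modest differences, with the number measured in parentheses. The matrix, imprinted and peritubular lists lie mostly to the left and the 4 sperm structure lists almost wholly to the right, while the row for all genes holds 13.5% large rises and 16.9% large falls.

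The lists of somatic cells differed in how many of their genes were called lower, beside 20.6% of all genes called lower and 14.9% higher. In the Sertoli cell list 20 of 43 measured genes were called lower and 1 higher (median -0.89). With arrays scaled to their median the counts were 15 lower and 1 higher (median -0.63). Gata4, a transcription factor of Sertoli and Leydig cells, read 506 to 2200.4 (median 960.5) and 89.6 to 208 (median 186) (-2.54 ± 0.22), Dhh, the hedgehog ligand of Sertoli cells, changed by -2.51 ± 0.20 (-1.62 on its other probe set), and Kitl, the ligand of the Kit receptor, by -2.61 ± 0.24. Sox9, which drives Sertoli cell fate, was a modest fall (-0.68 ± 0.14) that was not separated under both other scalings, while its other probe set changed by -1.24 with full separation. Cldn11, a claudin of the Sertoli cell barrier, changed by -0.28 ± 0.12 (adjusted p = 0.0534), and its earlier samples ran from a mean of 66.5 at day 0 to 862 at day 10. Its change was 0.11 without day 10 and -0.74 without day 0. Tsx, an X-linked gene of the Sertoli list, was the one called higher (2.44 ± 0.16).

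Smooth muscle and vessel genes were called lower more often than higher, beside 20.6% and 14.9% of all genes, though many were not called. Of 14 measured peritubular and smooth muscle genes 8 were called lower and 1 higher (median -1.27). Acta2, the smooth muscle actin of peritubular cells, read 1004 to 1919 (median 1475) and 219.9 to 279 (median 255) (-2.46 ± 0.19). Actg2, the other smooth muscle actin, was the exception (2.53 ± 0.13), on a probe set whose suffix marks probes that may be shared. In the endothelium and pericyte list 8 of 20 were called lower and 1 higher (median -0.88). With arrays scaled to their median 6 were called lower and 1 higher. Those called lower included Cdh5, the cadherin of endothelium (-2.67 ± 0.15), and Eng (-2.26 ± 0.22). Sox17 was higher (1.25 ± 0.14). Pecam1 differed by -0.52 ± 0.18 with overlapping groups (adjusted p = 0.0171), and by -0.35 (adjusted p = 0.0892 by limma) with arrays scaled to their median.

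Leydig cell genes moved both ways, and the direction of the list turned with the scaling, with a median of -0.21 and of 0.015 with arrays scaled to their median. Of 23 measured genes 2 were called higher and 4 lower. Both shares were under those of all genes, 14.9% and 20.6%. Hsd3b1, a hydroxysteroid dehydrogenase of fetal and adult steroid synthesis, changed by -1.68 ± 0.20, while Hsd3b6, the form of adult Leydig cells, read 4.3 to 18.9 (median 9.85) and 65 to 145 (median 122) (2.28 ± 0.18). Cyp17a1, which makes androgen precursors, had means of 486 at day 0, 87.3 at day 18 and 1039.8 at day 30, and differed by 1.61 ± 0.16. Star, the cholesterol transfer protein, fell by 1.17 with overlapping groups (adjusted p = 0.000868, and -0.29 with adjusted p = 0.0664 for the mean of its probe sets), and Insl3 (0.19 ± 0.17, adjusted p = 0.334) was not called. Macrophage genes also showed no common direction, with 1 of 18 called higher and 2 lower, again under the shares of all genes. Their median of -0.19 was 0.015 with median scaling. The one called higher was Aif1, read at 4.7 to 8 before and 829.6 to 1563 after (5.56 ± 0.10), while Csf1r, which defines macrophages, changed by -0.18 ± 0.11 (adjusted p = 0.142). Of the 7 measured erythroid genes Hba-a1, a haemoglobin chain, was lower (-2.41 ± 0.19) and Car2 higher (1.02 ± 0.14), with a median of 0.13 for the list.

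Spermatogonial and cell cycle genes fell in part, beside 20.6% of all genes called lower and 14.9% higher. Of 36 measured genes of gonocytes and spermatogonia 14 were called lower and 2 higher (median -0.71). With arrays scaled to their median 12 were called lower and 4 higher (median -0.48), and large falls went from 9 to 5. Zbtb16, a transcription factor of undifferentiated spermatogonia, changed by -1.89 (adjusted p = 6.08e-06) with overlapping groups, and Dnmt3a, a de novo DNA methyltransferase, by -2.48 ± 0.13 with separated ones. The 2 called higher without median scaling were Dmrtb1 (5.25 ± 0.23) and Nr6a1 (1.78 ± 0.17), both transcription factors of the germ line. Of 51 mitotic cell cycle genes 16 were called lower and 4 higher (median -0.54). With median scaling 16 were called lower and 7 higher (median -0.27). The replication factors Mcm2 (-2.14 ± 0.10) and Mcm3 (-2.19 ± 0.13, and -1.55 on its other probe set), Cks1b (-2.51 ± 0.17) and Mki67 (-1.86 ± 0.17) were lower. Aurka (1.99 ± 0.17) and Plk1 (1.14 ± 0.13), kinases of cell division, were higher, as was the modest Cdc20 (0.89 ± 0.15).

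The lists of general cell functions were read against the 14.9% of all genes called higher, the 20.6% called lower and the median of -0.24. Of 32 measured cytosolic ribosomal protein genes 16 were large falls and 0 were called higher (median -1.03, and -0.79 with arrays scaled to their median). The X-linked Rps4x read 2826 to 7924 (median 4189) and 305 to 409 (median 379.9) (-3.49 ± 0.16), and Rps19 (-2.84 ± 0.23) and Rpl22 (-2.71 ± 0.17) fell too. Of 60 splicing factors 17 were called lower and 1 higher, Ptbp2 (1.11 ± 0.21), with a median of -0.62. With arrays scaled to their median 9 splicing factors were called lower and 2 higher (median -0.38). Chaperonins and heat shock proteins held 15 of 45 genes called higher and 6 lower (median 0.47), with Dnaja4 (6.15 ± 0.26) and Hspa1l (4.49 ± 0.13) up and Hspe1 (-2.32 ± 0.14) down. The other probe set of Dnaja4 gave a much smaller rise of 1.77. The proteasome list had 7 of 42 called higher and 8 lower, with the activator gene Psme4 at 2.77 ± 0.22 and the subunit Psma7 at -2.13 ± 0.22. For oxidative phosphorylation 5 of 65 were higher and 7 lower, and the median turned from -0.17 to 0.09 with median scaling. The translation factors had a median of -0.24 with 7 higher and 13 lower of 46, and with arrays scaled to their median the balance turned to 8 higher and 5 lower. Ubiquitin conjugation had a median of -0.47 with 9 higher and 17 lower of 55 (10 and 11 with median scaling). The secretory pathway had -0.32 with 1 and 9 of 52 (2 and 5 with that scaling), mitochondrial ribosome and import -0.26 with 4 and 6 of 52 (5 and 5), and chromatin and DNA methylation enzymes -0.38 with 5 and 13 of 61 (8 and 9). The epididymis, fat and muscle list had 1 of 7 genes called, Adipoq.

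Genes of the X chromosome were lower more often than those of any autosome with at least 100 measured genes. Of 415 measured X-linked genes 198 were called lower and 30 higher (median -0.93, and -0.70 with arrays scaled to their median). The share of large falls was 40.0% on X and between 12.9% and 20.7% on the autosomes. The share of large rises was 4.58% on X and between 11.8% and 17.0% on the autosomes. Hprt, a purine salvage enzyme often used as a reference gene, read 341 to 513 (median 426) and 118 to 141 (median 129) (-1.56 ± 0.11), with no overlap. The 19 large rises on X were led by Tsga8 (7.76), Akap4 and H2ap (5.42), and 5 of them exceeded 4 log2 units.

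The modest differences were small and fully separated by definition. The modest rise with the widest gap was that of Rfx1, a transcription factor that binds the X-box. It read 414 to 556 (median 489) at days 0 to 10 and 865 to 1100.2 (median 979) at days 30 to 56. The groups did not overlap, and the change was 0.98 ± 0.10 (adjusted p = 1.49e-07), or 1.97-fold with a gap of 0.62. Its mean was 437 at day 20, still within the earlier range. Spcs1, a subunit of the signal peptidase, read 108 to 132 (median 123) and 207 to 266 (median 234) (0.86 ± 0.10), and it was 202 at day 18.

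The other 10 modest rises with the widest gaps had gaps of 0.49 to 0.59. They included Actl6a and Ep400, of chromatin remodelling complexes, Cand1, which exchanges cullin ligase subunits, Clk3, a kinase of splicing factors, and Zan, an egg-binding protein of the acrosome. Zan read 43.5 to 90.6 and 136 to 210.0 and was a small change for a gene of this kind (0.99 ± 0.12). Ep400, Cand1 and Tmx4 were no longer separated, or no longer significant, under 1 or both of the other scalings, and Tmx4 turned to -0.53 with quantile normalization. Within the lists, Hdac1 (0.83 ± 0.11), the chaperonin subunit Cct5 (0.56 ± 0.12) and Eif3c (0.85 ± 0.12) were modest rises, the last 2 not separated under both other scalings.

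**Figure D4:**
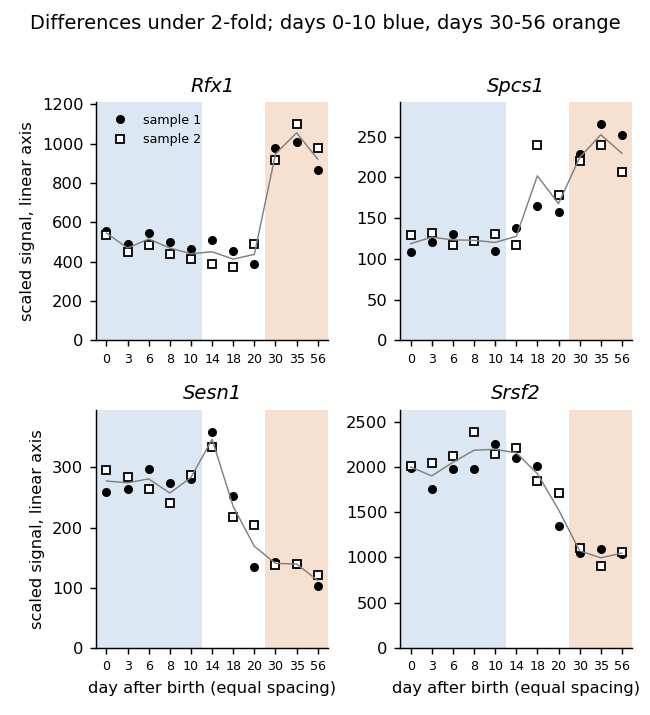
Signals of 4 modest genes in every sample by day, on linear axes from 0, with filled circles for sample 1 and open squares for sample 2. The 6 later samples of Rfx1 and Spcs1 lie above all 10 earlier ones, and those of Sesn1 and Srsf2 below, by less than 2-fold in the means.

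Among modest falls, Sesn1, a stress response gene, had the widest gap. It read 241 to 298 (median 277) and 102 to 143 (median 138) (-0.99 ± 0.10, gap 0.69), with a spread within each group that was small beside the difference. Srsf2, a splicing factor, read 1762 to 2395 (median 2031) and 903 to 1099 (median 1051) (-0.98 ± 0.09), and its mean was 2158 at day 14. Ctsb, a lysosomal protease, Casp8, an initiator of apoptosis, and Txnl1, a thioredoxin relative, were also among the 12 with the widest gaps, with changes of -0.96 ± 0.11, -0.99 ± 0.12 and -0.95 ± 0.11. Klc1, a kinesin light chain, was the one of the 12 that was not separated under both other scalings. Modest falls in the lists included the vesicle transport genes Arf4 and Copg1 (-0.70 ± 0.10), the proteasome genes Psmd14, Psmc1 and Pomp, the mitochondrial ribosome genes Mrps17, Mrpl28 and Mrpl27, and the ribosomal protein genes Rpl8 (-0.91 ± 0.15) and Rps20 (-0.88 ± 0.11). Of these, Psmd14, Psmc1, Pomp, Mrpl28, Mrpl27 and Rps20 were not separated under both other scalings.

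The modest falls depended on the scaling more than the modest rises. With arrays scaled to their median, 229 of the 786 modest falls remained separated and significant in the same direction and 557 did not, while 372 of the 385 modest rises did. Under both median scaling and quantile normalization, 222 modest falls and 293 modest rises kept their separation. Of the large differences, 1781 of 1812 rises and 1907 of 2280 falls did so.

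Other probe sets of the same genes, which were not used to choose the classes, give a second reading. For 692 genes with large rises 1092 other probe sets were measured, and 70.1% of them had a change of the same sign. The share was 87.1% of 1838 for large falls, 58.9% of 299 for modest rises and 78.2% of 591 for modest falls. The median change of these probe sets was 0.55, -0.80, 0.22 and -0.49, and for genes in none of the classes it was -0.22. Fully separated in the same direction were 38%, 33.9%, 24.7% and 16.2% of them, and in the opposite direction 43, 43, 17 and 15 probe sets. For genes in none of the classes, 17.8% of the other probe sets were fully separated in either direction. That last share counts both directions, so it cannot be set directly beside the shares for the same direction. For modest falls, 96 of the 591 other probe sets were separated in the same direction and 15 in the opposite one.

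The samples of days 14, 18 and 20 did not define the groups and were read for when the differences appeared. The 2 samples of day 18 were unlike. In samples 1 and 2 of that day the large rises held 11.57% and 17.31% of the signal on type A. The shares were 19.81% and 13.11% on type B and 22.71% and 14.67% on type C. The day 18 values below thus rest on 2 unlike samples. Of the large rises, 24.8% had both samples above every earlier sample at day 14, 59.0% at day 18 and 63.5% at day 20, while both samples had reached the later range for 2.32%, 13.9% and 23.3%. Of the large falls 24.4%, 59.9% and 72.7% had both samples below every earlier sample. For modest rises the shares were 16.4%, 48.8% and 49.4%, and for modest falls 9.67%, 31.0% and 39.4%. On a scale where 0 is the mean of days 0 to 10 and 100 that of days 30 to 56, the median large rise stood at 11.5, 60.4 and 71.0 at the 3 days, and the quartiles at day 20 were 16.6 and 95.7. The lower quartile holds genes such as Odf1, Prm3 and Iqcf3, which were near their early level at day 20.

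**Figure D5:**
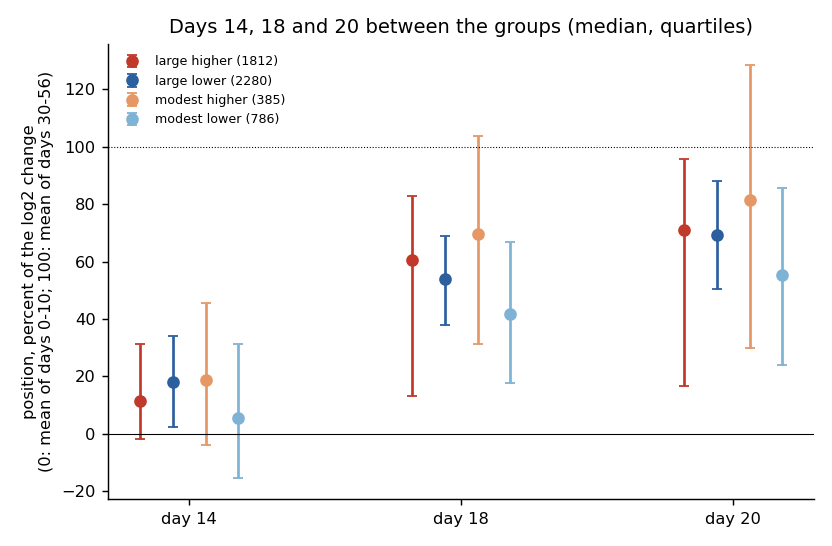
Position of each class between the groups at days 14, 18 and 20, in percent of the log2 change, where 0 is the mean of days 0 to 10 and 100 that of days 30 to 56. Points are medians over genes and bars run from the lower to the upper quartile. The large rises have a lower quartile of 16.6 at day 20 against 50.4 for the large falls.

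Values also moved within each span. Between day 0 and day 10, both day 10 samples were below both day 0 samples for 34.3% of the large falls and above for 18.5%, beside 21.6% and 22.7% of all genes. For the large rises the shares were 16.1% below and 26.4% above. Between day 30 and day 56, both samples of day 56 were above both of day 30 for 42.5% of the large rises and below for 22.2%, beside 24.9% and 24.2% of all genes. Large falls had 21.4% above and 24.4% below. These shares are descriptions, since the classes were chosen on the same samples.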

How the data were processed

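Total RNA of whole testes was measured on 66 arrays, 22 of each of 3 types. The deposited values are linear signal intensities, 1 for each probe set of an array, and the authors scaled every array to a mean of 125, per the labels; the software that made them is not given in the sources used here. Of 36899 probe sets, 29131 name 1 gene in the platform annotation used here, and these gave all gene counts. A probe set was kept if 2 or more of its 22 arrays reached a signal of 50, and a gene was represented by its probe set of highest mean signal.

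Values of log2(signal + 16) were fitted per type with limma 3.58.1 (R 4.3.3). The model held 11 day means over all 22 arrays of a type, which leaves 11 residual degrees of freedom, and eBayes used a variance trend. The contrast was the mean of days 30, 35 and 56 minus the mean of days 0, 3, 6, 8 and 10. Tests were two-sided, with p-values adjusted by the Benjamini-Hochberg method over 13462 genes of the 3 types. The fit was tested on simulated data, where large changes were mostly recovered and small ones mostly were not. The test's requirement was narrowed to large changes after that was seen, so a small change without an adjusted p under 0.05 may be a miss. The simulation altered far fewer genes than differed here, so its recovery of small changes may not carry over to these data. Errors are SE of the contrast, and precision is limited by how many arrays there are. They come from the spread between samples of a day, so differences between days within a group do not enter them. Detection calls were not used here.

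Named genes were the 12 largest large rises and falls, the 12 modest genes with the widest gaps each way, up to 4 large and 3 modest members of each of 30 lists, up to 2 members called against their list's majority, and 44 textbook genes, of which 41 were measured. The comparison, the lists and the members were chosen with earlier results of these data known. Tnp1, Syce1, Zbtb16 and H2ap lie outside this rule and were added after their values were seen, and the check of separation under both other scalings was defined after the effect of median scaling was seen. Alternatives were other pseudocounts, filters, scalings, probe set rules, group fits and samples left out. Samples numbered alike deviated together only in part, and the numbers were not taken as pairs. The correlation between days of the sample 1 minus sample 2 differences was over 0.1 in 9, 14 and 9 of 28 pairs of days on types A, B and C, with medians of 0.034, 0.104 and 0.04. The 3′ to 5′ ratio of Gapdh was higher in sample 2 on 9 of 11 days on type A, and in sample 1 on 10 of 11 days on type B and 9 of 11 on type C. No outlier test was run, since a labelled day holds 2 samples per type.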

Additional observations from a re-analysis of the deposited data

Results flagged for a closer look

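Probe sets without a single gene name were outside the comparisons of genes, and some of them differed between the groups. Of 4750 such probe sets that passed the filter, 212 (4.46%) were fully separated and at least 2-fold higher at days 30 to 56, and 345 (7.26%) were separated and at least 2-fold lower. Among the 22191 probe sets with 1 gene name the shares were 11.5% and 14.8%. The largest rise was in a probe set of type A that names several genes, which read 0.8 to 20.7 (median 3.75) at days 0 to 10 and 2016.6 to 3421 (median 2425) at days 30 to 56. The largest fall was also in a type A probe set that names several genes, with 647 to 3606 in the earlier and 33.5 to 64.4 in the later samples. These probe sets were not tested as genes.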

How the results depend on the processing

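The 6 counts of genes stayed within 1.5 times their values under the alternatives run, other than a pseudocount of 64, which gave 1651 genes called lower (main 2772), 643 modest rises (385) and 1540 modest falls (786). A larger pseudocount shrinks the changes of dim genes on this scale. Leaving out each numbered sample gave 1986 to 2020 genes called higher, 2744 to 2803 lower, 1808 to 1843 large rises, 2282 to 2383 large falls, 389 to 450 modest rises and 811 to 904 modest falls. With the replicate number as a block the counts were 2002, 2773, 1812, 2280, 385 and 787, although the numbers deviated together only in part. Leaving out the day 3 and day 6 samples with traces of later transcripts, an alternative added after seeing the data, gave 1996, 2794, 1829, 2338, 438 and 900. Full separation is easier to meet with fewer samples. Counts of separated genes with samples left out are therefore not on an equal footing with the main ones. Each numbered sample was left out on all types at once, though the number may not stand for the same RNA on each. Of the 239 named genes, 8 changed sign under at least 1 alternative: Cldn11 (0.11 without day 10), Csf1r (0.025 with quantile normalization, 0.009 with median scaling, 0.062 with the mean of its probe sets), Dazl (0.051 with that mean), Lama4 (-0.03 with quantile normalization, -1.34 without suffixed probe sets), Mlh3 (-0.62 without them), Sec63 (0.035 with the mean of its probe sets, 0.12 without suffixed ones), Sycp3 (0.083 with quantile normalization, 0.088 with median scaling, 0.008 without day 0, and from -0.386 to 0.168 with 1 numbered sample left out) and Tmx4 (-0.53 with quantile normalization). Of all named genes, 19 lost an adjusted p under 0.05 under at least 1 alternative, by limma, and 2 gained it. Where a change of probe set did not decide the value, the cause was not tested. Signals near background limit the dim genes most.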
